A study of Mus musculus with 6 samples.

Results

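A set of 10 genes that define the fat cell was followed in the dental pulp of mice with and without matrix metalloproteinase-13, a collagen-cleaving enzyme. They were chosen by name as adipocyte genes (Adipoq, Plin1, Plin4, Cidec, Lep, Fabp4, Lipe, Pnpla2, Pparg and Retn), and make up 10 of the 53342 Ensembl genes measured. RNA sequencing was carried out on pulp of C57BL/6 mice aged 3 months, from 3 wild-type (WT) mice, numbered 2, 4 and 5, and 3 mice lacking Mmp13 (Mmp13-/-), numbered 1, 2 and 6. No treatment was given to either genotype, each library was an independent biological sample according to the study, and no promoter or cell type is named that would limit the deletion. Molars and kit-purified RNA are named in the labels' protocols for both genotypes, although only the WT titles name molars, but incisors and TRIzol in the methods of the study.

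An adipocyte stores triglyceride in a large lipid droplet coated with perilipins, and releases fatty acids from it through a chain of lipases. The nuclear receptor encoded by Pparg drives the programme, and the hormones adiponectin, leptin and resistin are secreted into the circulation. Several of these genes are also used elsewhere: the lipases and Plin4 in skeletal muscle, Fabp4 in capillary endothelium and macrophages, Pparg in macrophages, and Adipoq in stromal cells of the bone marrow that carry the leptin receptor. Dental pulp is a loose connective tissue bordered by dentine-forming odontoblasts and is not a fat depot.

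Adipocyte genes did not move together. Adipoq, Retn, Lep and Fabp4 rose in Mmp13-/- pulp, Plin4, Pnpla2 and Lipe fell, and Plin1, Cidec and Pparg did not pass the test. Rising or falling here means an adjusted p under 0.05 in the quasi-likelihood test of edgeR, with Benjamini-Hochberg correction over all 24534 genes that passed a filter on low counts. The 10 genes all passed that filter, although Lep and Retn had at most 8 counts in any WT sample and passed through their Mmp13-/- counts. The background was high: 51.6% of all genes tested passed, 27.3% as higher and 24.3% as lower, so 7 of 10 is to be read against about that share. The count also rested on single libraries: without WT sample 2 or 5 it was 4, and only 1 of the 10 rose when any WT sample was left out. Beyond 2-fold, 3 of the 10 rose and 2 fell, where 30.1% of all genes tested did either, 20.4% up and 9.68% down. The median log2 fold change of the 10 was 0.07 and that of all genes tested 0.10. In bulk tissue, fewer cells of a type and less RNA per cell cannot be told apart. An exact permutation test of 3 against 3 samples cannot give a two-sided p below 0.1, and the p-values below therefore rest on the spread that edgeR estimates across genes.

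Libraries held 28442936 to 29980236 estimated counts in WT and 21561420 to 26547121 in Mmp13-/-. Levels are given as CPM, counts per 1000000 of the library total scaled by the trimmed mean of M-values (TMM), and 3 counts, taken as the floor of detection, equal 0.0952 to 0.174 CPM. Mmp13 itself stood at 35.4 ± 4.67 CPM in WT and 1.25 ± 1.02 CPM in Mmp13-/- (SD, n = 3 each), a log2 fold change of -4.96 (edgeR adjusted p = 7.67e-05). The Mmp13-/- libraries differed from WT in make-up. The satellite-like gene Gm10800 took 0.0210 to 0.0277% of WT counts and 3.89, 6.88 and 30.5% of counts in Mmp13-/- samples 1, 2 and 6. The 1451 protein-coding odorant and vomeronasal receptor genes, which pulp is not known to use, were taken as a gauge of background reads. Per 1000000 counts of the library total, without TMM scaling, they summed to 17.8 to 20.8 in WT. These sums were 308, 355 and 1196 in Mmp13-/- samples 1, 2 and 6.

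**Figure D1:**
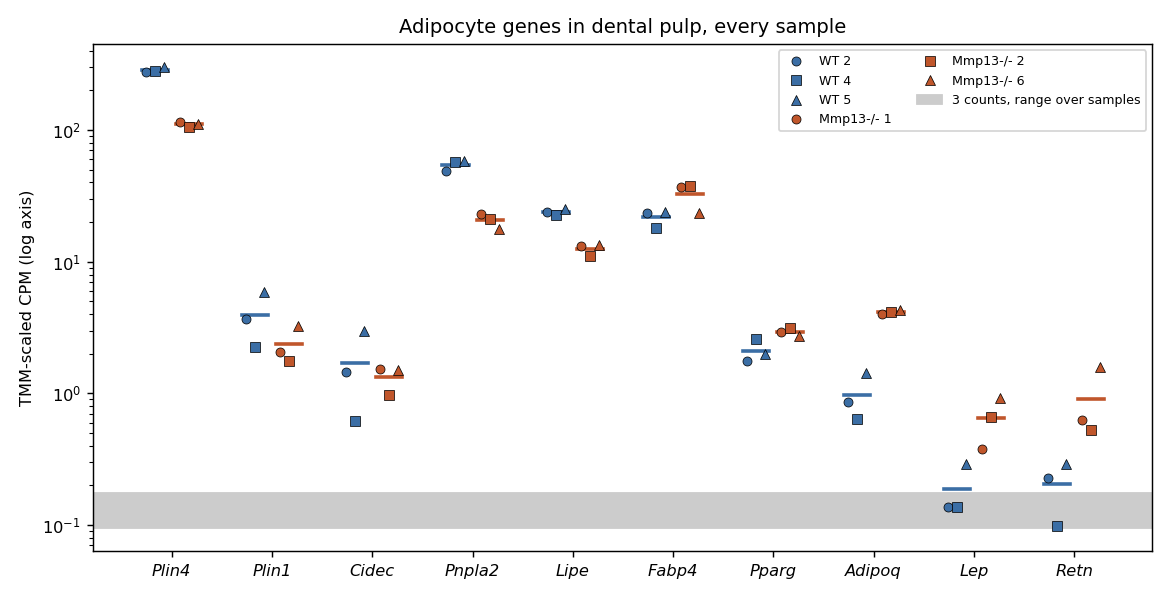
Level of each of the 10 adipocyte genes in every sample, in TMM-scaled CPM on a log axis, with WT in blue, Mmp13-/- in red, horizontal lines at the group means and a grey band at 3 counts. Adipoq stands at 4.02 to 4.32 CPM in Mmp13-/- and 0.639 to 1.44 CPM in WT, while Plin4 and Pnpla2 are lower in every Mmp13-/- sample than in every WT sample.

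Adipoq lies on chromosome 16 (GRCm38, 23146536 to 23158028, plus strand) and Retn on chromosome 8 (3655770 to 3660110, plus strand). Plin4 lies on chromosome 17 (56100591 to 56109803, minus strand) and Pnpla2 on chromosome 7 (141455198 to 141460743, plus strand). The 250 bases before their RefSeq starts (GRCm38.p6) are shown because these genes gave the largest rises and falls among the 10, on opposite sides. They span chr16:23146286-23146535 (plus strand) for Adipoq, chr8:3655520-3655769 (plus strand) for Retn, chr17:56109783-56110032 (minus strand) for Plin4 and chr7:141454938-141455187 (plus strand) for Pnpla2. Capitals mark the motifs searched on both strands, namely AGGTCA for nuclear receptors, the TATA box as TATAAA, the CCAAT box as its own letters, and TTGCNNAA as a C/EBP-like motif.
Adipoq: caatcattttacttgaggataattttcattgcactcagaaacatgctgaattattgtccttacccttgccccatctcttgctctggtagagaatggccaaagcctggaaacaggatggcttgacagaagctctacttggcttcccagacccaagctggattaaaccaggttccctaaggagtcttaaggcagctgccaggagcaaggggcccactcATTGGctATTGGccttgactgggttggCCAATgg
Retn: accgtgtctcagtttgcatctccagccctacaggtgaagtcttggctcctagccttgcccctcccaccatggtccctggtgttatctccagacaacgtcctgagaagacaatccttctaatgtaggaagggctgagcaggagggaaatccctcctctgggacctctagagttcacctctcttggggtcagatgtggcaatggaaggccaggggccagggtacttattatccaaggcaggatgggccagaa
Plin4: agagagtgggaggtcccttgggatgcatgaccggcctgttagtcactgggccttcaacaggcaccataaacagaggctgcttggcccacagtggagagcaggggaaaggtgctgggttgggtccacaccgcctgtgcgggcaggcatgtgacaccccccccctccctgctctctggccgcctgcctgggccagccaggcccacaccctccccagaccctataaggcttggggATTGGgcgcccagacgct
Pnpla2: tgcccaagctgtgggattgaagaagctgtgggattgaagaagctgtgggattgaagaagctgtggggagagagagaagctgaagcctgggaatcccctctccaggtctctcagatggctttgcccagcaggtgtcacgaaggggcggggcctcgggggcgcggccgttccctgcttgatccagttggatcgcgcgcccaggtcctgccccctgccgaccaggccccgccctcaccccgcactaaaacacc
Of these 4 windows, Adipoq held 3 copies of CCAAT, Plin4 held 1, and Retn and Pnpla2 held no match to any of the 4 motifs. In all 32851 promoter windows of this length CCAAT occurred in 33.8%, AGGTCA in 14.0%, TATAAA in 12.4% and TTGCNNAA in 9.56%. A match is a run of letters and not a shown binding site. Windows were found for 9 of the 10 genes, 13 windows in all, and among them AGGTCA occurred only in the windows of Pparg. The share of G and C was 48.8% in the Adipoq window and 54.8% in that of Retn, against 65.2% for Plin4 and 63.2% for Pnpla2, with a median of 52.4% over all promoters. The Lep window, of a gene that also rose, held 65.6%.

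Of the hormones, Adipoq, which encodes adiponectin, an insulin-sensitizing hormone, gave the clearest rise. It stood at 0.854, 0.639 and 1.44 CPM in WT samples 2, 4 and 5 and at 4.02, 4.15 and 4.32 CPM in Mmp13-/- samples 1, 2 and 6. Every Mmp13-/- sample lay above every WT sample, and the Mmp13-/- samples lay closer together than the WT samples. The rise was 4.25-fold, a log2 fold change of 2.09 ± 0.31 (SE, edgeR adjusted p = 0.000549). Among all genes tested, 31.8% likewise had every Mmp13-/- sample above every WT sample, and 29.1% had every one below. The Adipoq counts in Mmp13-/- were 61.0, 51.3 and 11.2 times the number that the background rate gives over its exons. The rise passed under all 18 alternatives tried, at log2 fold changes of 1.82 to 2.38, and without sample 6 it was 2.06.

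Retn encodes resistin, which in mice is secreted by adipocytes. Its levels were 0.228, 0.0991 and 0.292 CPM in WT and 0.629, 0.523 and 1.59 CPM in Mmp13-/-. The groups did not overlap, and WT sample 4 lay under the floor of 3 counts. The log2 fold change was 2.05 ± 0.65 (SE, edgeR adjusted p = 0.0240). The call rested on few reads: without WT sample 2, 4 or 5 the adjusted p was 0.0671, 0.110 and 0.0524. The Retn counts in Mmp13-/- were 8.34, 5.65 and 3.61 times the background rate. Retnlg, a neutrophil gene of the same family, rose from 4.92, 8.63 and 8.35 CPM in WT to 28.4, 33.4 and 20.6 CPM in Mmp13-/-, and whether reads of the 2 genes were exchanged was not tested.

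Lep, the gene of leptin, the satiety hormone, was the lowest of the 10. It stood at 0.138, 0.138 and 0.292 CPM in WT, against 0.379, 0.667 and 0.920 CPM in Mmp13-/-. The groups did not overlap, but WT held only 4, 4 and 8 counts. The log2 fold change was 1.76 ± 0.63 (SE, edgeR adjusted p = 0.0382). The call was lost when any sample was left out (adjusted p of 0.0530 to 0.169), in DESeq2 (adjusted p = 0.0940) and in edgeR without the filter on low counts (adjusted p = 0.113). The Mmp13-/- counts were 2.37, 3.39 and 0.987 times the background rate, so that in sample 6, the highest in CPM, the Lep reads about equalled the number given by background alone.

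Plin4, Plin1 and Cidec encode coat proteins of the lipid droplet. Plin4, which coats small and newly filled droplets, stood at 277, 283 and 301 CPM in WT, against 116, 106 and 111 CPM in Mmp13-/-. The groups did not overlap, and within each genotype the samples lay close together. Plin4 fell by 1.38 ± 0.15 on the log2 scale (SE, edgeR adjusted p = 0.000142), and was 2.60-fold lower. Plin1, the adipocyte perilipin that guards the droplet from lipases, stood at 3.66, 2.27 and 5.90 CPM in WT and 2.06, 1.77 and 3.26 CPM in Mmp13-/-. Cidec, which helps droplets fuse into a large one, stood at 1.45, 0.620 and 3.00 CPM in WT and 1.54, 0.980 and 1.50 CPM in Mmp13-/-. Both overlapped between genotypes, with WT sample 5 the highest of all samples for each. Their log2 fold changes were -0.76 ± 0.37 for Plin1 (edgeR adjusted p = 0.110) and -0.33 ± 0.51 for Cidec (edgeR adjusted p = 0.617). Plin1 passed without WT sample 4 at -1.08 (edgeR adjusted p = 0.0324), without the filter at -0.88 (edgeR adjusted p = 0.0121) and after subtraction of background reads at -0.98 (edgeR adjusted p = 0.0466). Without WT sample 5, the value for Cidec turned to 0.29 (edgeR adjusted p = 0.668).

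The lipases fell. Pnpla2 encodes adipose triglyceride lipase, which takes the leading fatty acid off triglyceride, and stood at 48.9, 57.3 and 58.1 CPM in WT and 23.1, 21.3 and 17.8 CPM in Mmp13-/-. Lipe encodes hormone-sensitive lipase, which acts on the diglyceride left behind, and stood at 23.9, 22.8 and 25.0 CPM in WT and 13.2, 11.1 and 13.4 CPM in Mmp13-/-. Neither gene overlapped between genotypes. Pnpla2 fell by 1.40 ± 0.15 on the log2 scale (edgeR adjusted p = 0.000133) and Lipe by 0.93 ± 0.14 (edgeR adjusted p = 0.000591). Lipe shares 918 of its exon bases, 15.6%, with 4732471J01Rik on the opposite strand, and without strand information, which the sources used here do not give, reads of the 2 cannot be told apart there.

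Fabp4 encodes the fatty acid carrier of adipocytes, and Pparg the receptor that switches on the programme. Fabp4 stood at 23.6, 18.1 and 23.7 CPM in WT and 36.6, 37.6 and 23.4 CPM in Mmp13-/-. Samples 1 and 2 lay above all WT samples, but Mmp13-/- sample 6 lay within the WT range. The log2 fold change was 0.58 ± 0.20 (SE, edgeR adjusted p = 0.0336), and the call was lost when any sample other than Mmp13-/- sample 6 was left out (adjusted p of 0.0795 to 0.165). It was also lost with total counts (edgeR adjusted p = 0.0597), in limma on the deposited log2 values (adjusted p = 0.155) and by gene-by-gene testing with Storey's q (q = 0.0545). Without sample 6 it was 0.77 (edgeR adjusted p = 0.00300). Pparg stood at 1.76, 2.61 and 1.98 CPM in WT and 2.94, 3.15 and 2.72 CPM in Mmp13-/-. The groups did not overlap, but the gap was small, and the log2 fold change of 0.48 ± 0.26 did not pass (edgeR adjusted p = 0.144).

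Per kilobase of the principal transcript, the order of levels in WT was Plin4 (49.9 CPM per kb), Pnpla2 (30.4), Fabp4 (24.3), Lipe (6.62), Plin1 (1.40), Pparg (1.20), Cidec (0.982), Adipoq (0.756), Retn (0.181) and Lep (0.0581). From Plin1 to Adipoq the neighbours overlapped over the 3 samples, as did Retn and Lep, and the others did not. The 3 hormone genes, Plin1, Cidec and Pparg were thus all at or under 1.40 CPM per kb, and the higher levels belonged to Plin4, the lipases and Fabp4, which other cell types also use. In Mmp13-/- the order opened with Fabp4 (36.3 CPM per kb), Plin4 (19.2) and Pnpla2 (11.5). Adipoq moved from place 8 to place 5 at 3.22 CPM per kb, beside Lipe at 3.47, and those neighbours overlapped.

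Other adipocyte genes were described from 9 lists of 78 genes, of which 75 entered the test. Of these 12 rose (16.0%) and 39 fell (52.0%), with a median log2 fold change of -0.46, where 27.3% of all genes tested rose and 24.3% fell at a median of 0.10. The counts in each list below are to be read against these shares, and 62.1% of protein-coding genes above 55% GC fell. Every p given for them is an edgeR adjusted p. When a sample was left out, 35 to 38 fell and 4 to 14 rose, with 4 without Mmp13-/- sample 1, 6 without WT sample 4 and 14 without Mmp13-/- sample 6. With total counts 8 rose and 22 fell, and with upper-quartile factors 18 and 31.

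Among the transcription factors of adipogenesis, none of 11 rose and 9 fell, and 1 rose without Mmp13-/- sample 6. The smallest p belonged to Rxra, the partner of PPARγ, at a log2 fold change of -1.38 (adjusted p = 0.000147), to Srebf1, the sterol- and insulin-responsive lipogenic factor, at -1.35 (adjusted p = 0.000153), and to Zfp423, a preadipocyte commitment factor, at -1.31 (adjusted p = 0.000186). Of 10 droplet and caveola genes 1 rose, the caveolin gene Cav1 at 0.43 (adjusted p = 0.0293). Of the rest, 6 fell: Plin5, the perilipin of oxidative tissue, at -1.71 (adjusted p = 7.38e-05), Fitm2, a droplet-forming protein, at -1.55 (adjusted p = 0.000149) and Cavin1, a caveola coat protein, at -1.42 (adjusted p = 0.000188) led them. The rise of Cav1 was lost when any sample other than Mmp13-/- sample 6 was left out. Of 8 genes of lipolysis and its control, Hilpda, an inhibitor of adipose triglyceride lipase, rose at 0.70 (adjusted p = 0.0301), and not without WT sample 2 or 4 or Mmp13-/- sample 1 or 2, and 3 fell, Mgll (-1.01, adjusted p = 0.000891), the monoglyceride lipase, Aqp7 (-0.90, adjusted p = 0.00204), the glycerol channel, and Pnpla3 (-1.17, adjusted p = 0.00542).

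Of 14 genes of triglyceride and fatty acid synthesis 9 fell. Lpin1, a phosphatidate phosphatase, stood at -1.28 on the log2 scale (adjusted p = 0.000853), Gpd1, which makes glycerol phosphate, at -2.12 (adjusted p = 0.00102), and Fasn, fatty acid synthase, at -0.87 (adjusted p = 0.00194). Elovl6, a fatty acid elongase, rose at 0.63 (adjusted p = 0.00514), and not without Mmp13-/- sample 1. Of 7 uptake genes 4 fell, led by the fatty acid transporter Slc27a1 (-1.37, adjusted p = 0.000153), the insulin-responsive glucose transporter Slc2a4 (-1.66, adjusted p = 0.000478) and lipoprotein lipase, Lpl (-1.17, adjusted p = 0.000962). The scavenger receptor Cd36, also carried by macrophages and endothelium, rose from 32.5, 15.0 and 23.4 CPM in WT to 68.3, 66.5 and 54.6 CPM in Mmp13-/-, a log2 fold change of 1.42 (adjusted p = 0.00119).

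Of 5 adipokine receptors, the leptin receptor Lepr had the largest log2 fold change among these genes before correction for GC content. It stood at 8.48, 5.86 and 7.84 CPM in WT and 29.0 CPM in Mmp13-/- sample 1, with 40.5 and 31.4 CPM in samples 2 and 6. The groups did not overlap and the rise was 4.55-fold, a log2 fold change of 2.18 ± 0.19 (SE, adjusted p = 6.42e-05). Adipor1, an adiponectin receptor, fell at -0.99 (adjusted p = 0.00167), as did Cdh13, which binds adiponectin, at -0.64 (adjusted p = 0.00679). Of 7 other adipokines tested, Rbp4, the retinol carrier (1.86, adjusted p = 0.0206), and Rarres2, the chemerin gene (0.70, adjusted p = 0.00405), rose. Rbp4 held 6.41, 19.8 and 14.3 counts in WT samples 2, 4 and 5, and 1 of the 7 rose without Mmp13-/- sample 1. Fndc5, the irisin precursor of muscle (-1.68, adjusted p = 0.000306), and Angptl8 (-1.02, adjusted p = 0.0204) fell.

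Of 5 brown and beige fat genes tested, Dio2, which activates thyroid hormone, rose at 1.52 (adjusted p = 0.000159), and Cox7a1 (-0.93, adjusted p = 0.00292) and Prdm16 (-0.46, adjusted p = 0.0427) fell, of which 1 was lost without WT sample 4 or Mmp13-/- sample 1 or 2. Ucp1, the uncoupling protein that defines brown fat, did not enter the test and held at most 2 counts in any WT sample, with 2.79, 7.27 and 14.3 counts in Mmp13-/- samples 1, 2 and 6. Elovl3 and the adipokine gene Itln1 did not enter it either. Of 8 progenitor genes 4 rose, with Cd34 (0.54, adjusted p = 0.0137), Dpp4 (1.26, adjusted p = 0.0251) and Ly6a (0.64, adjusted p = 0.0321) giving the smallest p. None of the 8 rose without WT sample 4, without Mmp13-/- sample 1 or in limma, and 1 rose with total counts. After the GC correction described below 3 of the 8 rose. They were Pdgfra (0.66, adjusted p = 0.0129), Ly6a (0.79, adjusted p = 0.0474) and Pi16 (0.57, adjusted p = 0.0220). Cd34 (0.09, adjusted p = 0.496) and Dpp4 (0.75, adjusted p = 0.173) did not pass then. Pdgfrb (-0.83, adjusted p = 0.00261) and Zfp521 (-0.46, adjusted p = 0.0368) fell. Neither passed after that correction, at -0.12 (adjusted p = 0.423) for Pdgfrb and -0.16 (adjusted p = 0.361) for Zfp521.

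**Figure D2:**
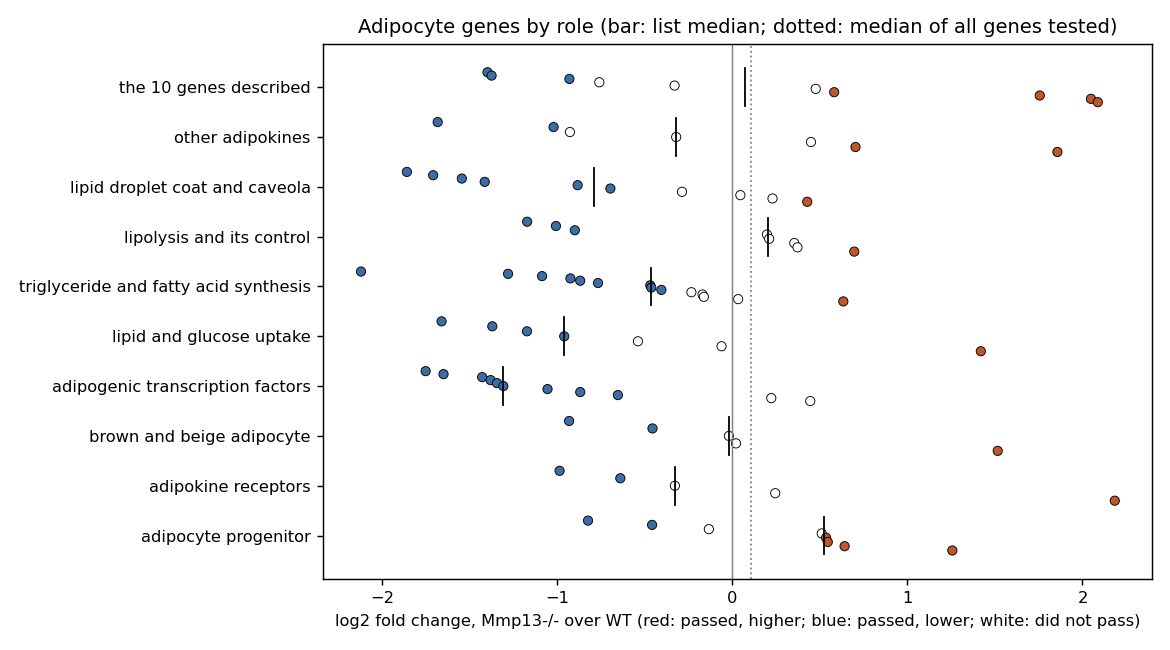
Log2 fold change, Mmp13-/- over WT, of the 10 adipocyte genes and of 75 other adipocyte genes by role, 1 point per gene, red for genes that rose, blue for genes that fell and white for those that did not pass, with a bar at each list's median. The list of transcription factors has its median at -1.31 with 9 of 11 genes lower, and Lepr is the highest point at 2.18.

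Direction among the 10 genes followed the base composition of their transcripts. Plin4, Plin1, Cidec, Lipe and Pnpla2, at 55.6 to 57.0% G and C, all had negative fold changes. Adipoq, Lep, Retn, Fabp4 and Pparg, at 42.7 to 50.2%, all had positive ones. A line at 55% was drawn after the values were seen. Genes at large leaned the same way, but less sharply. Of the 4025 protein-coding genes tested above 55%, 20.7% had a positive log2 fold change and the median was -0.78. Of the 12958 at or under it, 58.5% did and the median was 0.20, with 34.2% passing as higher and 21.2% as lower. Across protein-coding genes Spearman's rho between log2 fold change and GC content was -0.562, a description across genes of the same 6 libraries.

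After each library was corrected for GC content, which brought that rho to -0.0319, 4 of the 10 genes rose and 2 fell. Adipoq (2.16, edgeR adjusted p = 0.00220), Retn (2.33, adjusted p = 0.0328) and Lep (1.96, adjusted p = 0.0447) were little altered in size, and Pparg passed at 0.78 (adjusted p = 0.0408). Retn and Lep still rested on at most 8 counts in any WT sample. Plin4 (-0.59, adjusted p = 0.00452) and Pnpla2 (-0.54, adjusted p = 0.00404) still passed but at well under 2-fold. Fabp4 (0.11, adjusted p = 0.527) and Lipe (-0.17, adjusted p = 0.363) no longer passed, and the values of Plin1 (0.11) and Cidec (0.49) turned positive without passing. Under the same correction 5828 of all 24534 genes tested rose and 3221 fell, with a median log2 fold change of 0.22. The corrected counts given here are to be read against these. Among the other adipocyte genes 12 then rose and 24 fell, with a median of -0.10. Of the genes called without correction 8 changed sign. Dgat1 (0.36, edgeR adjusted p = 0.0255) and Agpat2 (0.47, edgeR adjusted p = 0.0188), enzymes of triglyceride synthesis counted above as falling, then passed as higher, and Fasn (0.07), Angptl8 (0.04), Prdm16 (0.12), Cebpa (0.26), Nr1h3 (0.19) and Cav1 (-0.05) did not pass. In the synthesis list 2 genes then rose and 4 fell, with a median of -0.02. Cd36 at 0.43 no longer passed (edgeR adjusted p = 0.0881), nor did Elovl6 at 0.31 (edgeR adjusted p = 0.125). The falls of Mgll (-0.28, edgeR adjusted p = 0.0780), Pnpla3 (-0.19, edgeR adjusted p = 0.637) and Cox7a1 (-0.22, edgeR adjusted p = 0.322) were lost as well. Of the transcription factors 6 of 11 fell, with Rxra at -0.52 (adjusted p = 0.00400), and Lepr rose at 1.64 (adjusted p = 0.000357), less than Rbp4 at 2.65 (adjusted p = 0.0120). When background reads were subtracted as well, 9 of the 10 genes could be tested, all but Lep. Adipoq (2.16), Retn (2.09), Plin4 (-0.56) and Pnpla2 (-0.52) passed.

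**Figure D3:**
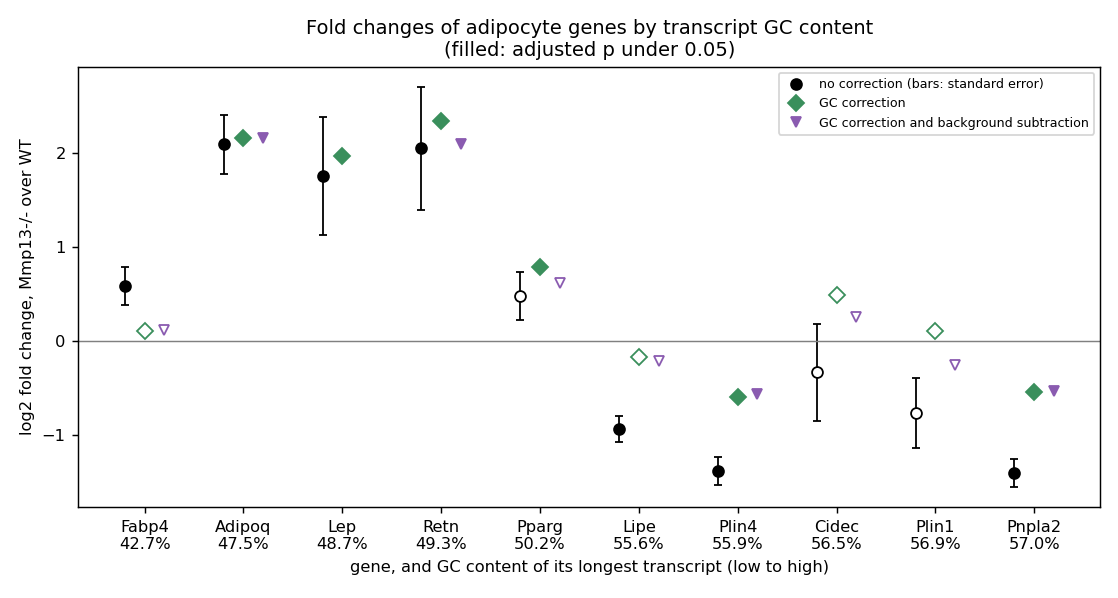
Log2 fold change, Mmp13-/- over WT, of the 10 adipocyte genes in order of the GC content of their longest transcript, without correction (black, bars are the SE), after GC correction (green) and after GC correction with background subtraction (purple), filled where the adjusted p is under 0.05. The fall of Plin4 shrinks from -1.38 to -0.59 and that of Pnpla2 from -1.40 to -0.54, while Adipoq stays at 2.09 to 2.16.

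Markers of other cell types moved as well. Their counts are to be read against all 24534 genes tested, of which 27.3% rose and 24.3% fell. After GC correction 5828 of these rose and 3221 fell. The 12 skeletal muscle markers summed to 57162, 48449 and 48867 CPM in WT and 20273, 21689 and 9401 CPM in Mmp13-/-, with 11 of 12 falling and none at 0. After GC correction 7 of the 12 fell, and their median log2 fold change moved from -1.52 to -0.97. The sum, like Plin4, Pnpla2 and Lipe, was lower in every Mmp13-/- sample than in every WT sample. Of the single markers 10 of 12 were, as were 29.1% of all genes tested. Mylpf (log2 fold change 0.34, edgeR adjusted p = 0.483) and Myh2 overlapped. In Mmp13-/- sample 6 the muscle sum was less than in samples 1 and 2, whereas Plin4 and Lipe were not lower there than in both of them and Pnpla2 was, at 17.8 CPM. Gpd1 (51.3, 44.9 and 15.7 CPM) and Slc2a4 (112, 102 and 58.1 CPM) were lowest in sample 6, as the muscle sum was. The part of muscle RNA in the falls of the lipases and Plin4 was not tested.

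Blood and marrow cell markers rose, where 27.3% of all genes tested rose and 24.3% fell. All 8 neutrophil markers rose, with sums of 137 to 284 CPM in WT and 711 to 1741 CPM in Mmp13-/-, as did all 6 eosinophil markers, from 3.43 to 8.06 CPM in WT to 40.5 to 262 CPM in Mmp13-/-. Of 10 macrophage markers 5 rose and none fell (171 to 186 CPM in WT, 357 to 614 CPM in Mmp13-/-). Of 10 endothelial markers 1 rose and 5 fell (455 to 515 CPM and 307 to 433 CPM). The 10 odontoblast and pulp markers, which mark the labelled tissue, were all detected and summed to 37488 to 45294 CPM in WT and 11296 to 14191 CPM in Mmp13-/-, with 2 rising and 4 falling. Col1a1, a collagen of many connective tissues, made up most of that sum, at 35399 to 42196 CPM in WT and 7919 to 10186 CPM in Mmp13-/-. The other 9 summed to 1961 to 3452 CPM in WT and 2732 to 4005 CPM in Mmp13-/-, which overlapped, and the markers that rose were Dspp and Phex. Of 8 keratinocyte and gland markers 1 rose and 4 fell (2037 to 4648 CPM and 1068 to 1710 CPM). After GC correction all 10 macrophage markers rose, where 5828 of all 24534 genes tested rose and 3221 fell. The endothelial list then held 4 rises and 1 fall, with its median log2 fold change moving from -0.33 to 0.12. The odontoblast and pulp list held 2 rises and 1 fall, and the keratinocyte and gland list 3 rises and no fall. None of these lists had a marker at 0 in all samples. Their part in the rises of Adipoq, Lepr, Fabp4 and Cd36 was not tested.

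**Figure D4:**
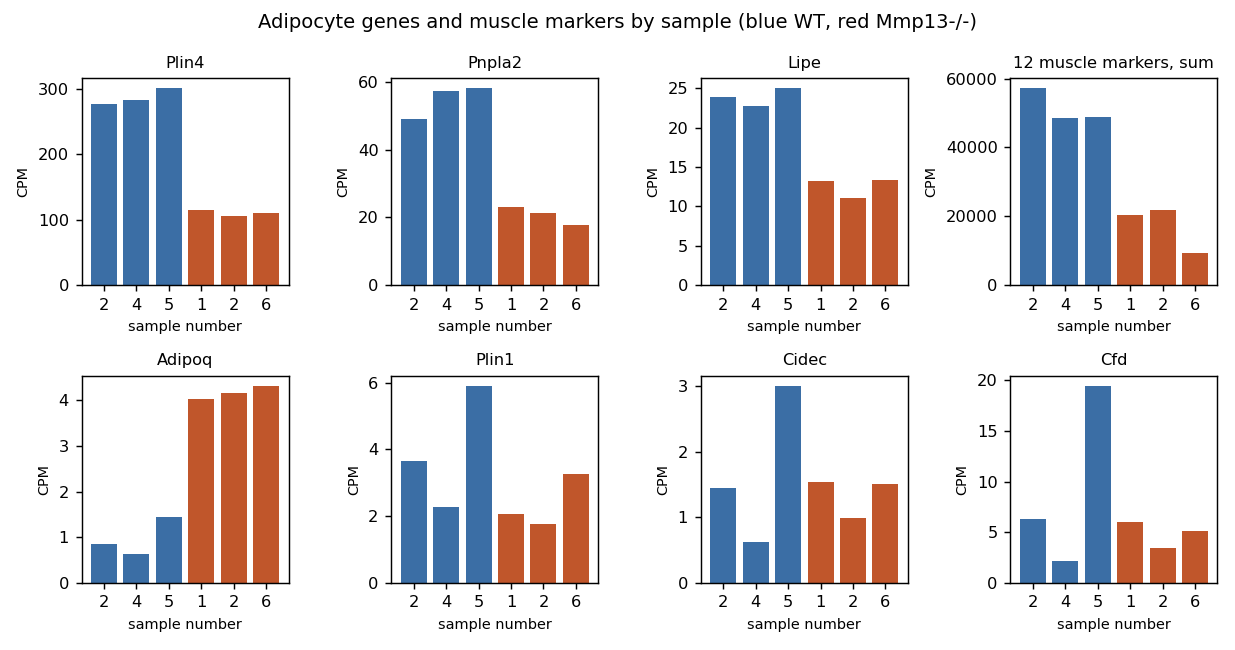
Level in each sample, in TMM-scaled CPM on linear axes from 0, of 6 adipocyte genes among the 10, of Cfd and of the summed 12 skeletal muscle markers, WT in blue and Mmp13-/- in red. Plin4, Pnpla2, Lipe and the muscle sum are lower in all Mmp13-/- samples, Adipoq is higher in all of them, and Plin1, Cidec and Cfd are highest in WT sample 5.

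In 6 of the 10 genes (Adipoq, Plin1, Cidec, Fabp4, Lipe and Retn) WT sample 5 was highest, sample 2 next and sample 4 lowest, an order noticed in these values and found in 14.0% of all genes tested. Lep had equal counts in samples 2 and 4. Of the 78 other adipocyte genes 12 had that order, and 20 had sample 5 highest, then 4, then 2, which 16.9% of all genes tested had. Cidec ranged 4.83-fold between WT samples and Plin1 2.60-fold, whereas Plin4 ranged 1.09-fold. Cfd, the adipsin gene, which was singled out after its values were seen, had the same order at 6.26, 2.18 and 19.4 CPM, a range of 8.91-fold, and stood at 6.04, 3.43 and 5.15 CPM in Mmp13-/- (log2 fold change -0.93, edgeR adjusted p = 0.223). Adipoq in Mmp13-/- ranged only 1.07-fold, and its order there was not that of Plin1 or Cidec.

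The genes whose log2 CPM lay closest to that of Adipoq over the 6 samples were Cenpi (Pearson r = 0.9991), Gm7452, Pip5k1b, Hdgfl3 and Gm7538, none of them a fat-cell gene on the lists used. For deviations from the genotype means they were Gpalpp1 (r = 0.9958), Gm9847, Gm37566, Blk and Acat3. Among the 10 genes, Lep (0.893) and Retn (0.841) were closest to Adipoq over the 6 samples, and Plin4 (-0.953) the farthest. On deviations within genotype, Cidec (0.931) and Plin1 (0.873) were closest. These values describe 6 libraries that share 2 genotype means and differ in make-up.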

How the data were processed

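RNA of 6 dental pulp samples was sequenced and grouped by the genotype in the sample labels. One table of 53342 genes was used. Its estimated counts were made by the authors in Strand NGS 4.0 from reads aligned to mm10, and carry fractions. The normalized log2 values deposited beside them served in an alternative only. DESeq is named in the submitters' processing notes. The methods of the study state a paired-end run, while the column names show the mate R1 only. The use of strand is not given in the sources used here.

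Estimated counts were rounded, and edgeR 4.0.16 in R 4.3.3 was used (quasi-likelihood test, TMM factors, low-count filter by genotype, Benjamini-Hochberg adjustment over all genes tested). The model replaced the study's gene-by-gene test, which suits normalized values. CPM used the unrounded counts, and the SE is the absolute log2 fold change over the square root of F. GENCODE M21 (GRCm38) matched 99.8% of genes, and promoters came from RefSeq GRCm38.p6. Library pairs within a genotype differed by a chi-square of 24.1 to 411 per degree of freedom, far above counting error, and none was a duplicate.

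Alternatives were RLE and upper-quartile factors, total counts, factors without the 10 most abundant genes, a filter asking for 10 counts in each sample, testing without a filter, DESeq2 1.42.0, limma 3.58.1 on the deposited log2 values, the study's procedure, each sample left out, correction for GC content (a loess with span 0.4 on genes with mean log2 CPM above 3, used as offsets), background subtraction in proportion to exon length, and both. The study's procedure was rerun as far as it is stated, on the deposited log2 values. The GC offsets were recomputed after results had been seen. Their earlier form scaled for library composition at both the smoothing and the library-size step, and passed 2 of the 10 genes and 3422 genes up and 1734 down over all, against 6, and 5828 and 3221, as given here. The edgeR test was tried on simulated counts. It called 46 of 96 genes changed 2-fold, 74 of 96 changed 4-fold and 3 of 23616 unchanged genes. Far fewer genes were changed there than passed in the data, and no difference in GC content or background reads was put in. These rates therefore do not carry over to the data. A gene that did not pass may still have changed.

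Genes and lists were chosen with earlier results of these data known. The text names the 10 genes, at most 3 per direction with the smallest adjusted p in each other list, untested genes, and the 5 genes most like Adipoq in each measure. Satellite genes were not matched by sequence.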

Additional observations from a re-analysis of the deposited data

How the results depend on the processing

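The direction of Adipoq, Plin4, Pnpla2, Lipe, Fabp4, Pparg, Retn and Lep was kept under every alternative that gave a value for them, and Adipoq, Plin4 and Pnpla2 passed in all 18. Plin1 turned to 0.11 with GC correction. Cidec turned to 0.49 with GC correction, 0.25 with both corrections and 0.29 without WT sample 5 (-0.77 to 0.29 when a sample was left out). None of these passed. The number of the 10 genes that passed, 7, became 4 with both corrections, and 4 to 6 when a sample was left out, with 4 without WT sample 2 or WT sample 5. The number over 2-fold, 5, became 3 with 10 counts asked of each sample, 3 with GC correction, 2 with both corrections, and 3 to 5 when a sample was left out, with 3 without WT sample 5. Of the other adipocyte genes 51 passed, against 30 with total counts and 41 to 51 when a sample was left out. Over all genes 12665 passed, against 19292 without a filter and 7816 with both corrections. When a sample was left out, 10915 to 12864 passed. The study's procedure, rerun as far as it is stated, passed 22979, which is more than the study itself reported. The cause was not tested. The share of called genes that were higher was 53.0%, and 63.9% with upper-quartile factors, 69.2% with total counts and 65.9% without a filter. It was 64.3% in DESeq2, 65.4% by the rerun of the study's procedure and 64.4% with GC correction. The median over all genes shifted by 0.21 on the log2 scale with upper-quartile factors and by 0.11 with total counts, and no direction among the 10 genes turned with either. With 10 counts asked of each sample, Lep and Retn could not be tested, nor Lep after background subtraction. Lep and Retn held under 10 counts in every WT sample, and Plin1 and Cidec differed widely among the 3 WT samples. The part of depth or of this spread in their calls was not tested. No paired analysis was possible because the genotypes share only 1 replicate number, 2.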
